A study of Mus musculus with 12 samples.

Results

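The SERTA domain genes Sertad1, Sertad2, Sertad3, Sertad4 and Cdca4 were followed in 12 CT-26 tumors, with Sertad3 in the foreground. They are 5 of the 30630 genes listed for every tumor, and they were found by matching the mouse Ensembl identifiers to these symbols in the GENCODE M21 annotation. Sertad3, and the family around it, was chosen by its FPKM values in the control and swimming tumors, which were already known, so the difference between the groups is described for these genes and no p is given for it. CT-26 is a mouse colon carcinoma cell line, which was injected in Matrigel under the skin of the right flank of male BALB/c mice that were 4 to 6 weeks old on purchase. Training of the swimming group lasted 3 weeks, with 2 swims of at most 30 min daily and 6 training days per week, and mice of the control group bore the same tumors without training. Tumors of 6 control and 6 swimming mice were sequenced, out of 10 mice per group, and each value is from tissue of 1 mouse's tumor, in which cancer cells and host cells are mixed.

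Proteins of this family share the SERTA motif, named after SEI-1, RBT1 and TARA, and act in the nucleus as partners of transcription factors. Sertad1, also called SEI-1 or TRIP-Br1, binds the cell cycle kinase CDK4 and helps E2F and its partner DP1 to switch on the genes of DNA synthesis. Sertad2, or TRIP-Br2, is a related E2F coactivator known for restraining fat breakdown in adipocytes. Sertad3, or RBT1, binds replication protein A, the complex that coats single-stranded DNA, and has also been described as an interferon-induced gene. Cdca4 is a target of E2F that acts back on E2F-dependent transcription, and Sertad4 is the least studied of the 5.

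Sertad3 and Sertad1 are neighbours on the forward strand of chromosome 7 in GRCm38. Sertad3 (ENSMUSG00000055200) lies from 27473768 to 27477364, and Sertad1 (ENSMUSG00000008384) starts 9.55 kb further on and lies from 27486910 to 27490316. Sertad2 is on chromosome 11 (20543253 to 20653021, forward strand), Cdca4 on chromosome 12 (112820229 to 112829423, reverse strand) and Sertad4 on chromosome 1 (192844488 to 192855756, reverse strand). In 4 of the 5 genes, all but Sertad4, the transcript with the longest reading frame carried the whole frame in 1 exon, an arrangement found in 7.16% of the 13462 protein-coding genes tested. The frame was 197 codons long in Sertad3, 236 in Sertad1, 237 in Cdca4, 309 in Sertad2 and 377 in Sertad4. Sertad3, with 1 annotated transcript, overlaps no other annotated gene, while exons of Sertad4 overlap those of a gene on the other strand, Gm15867. Counting by strand is not stated, so reads of these last 2 genes cannot be told apart and the Sertad4 level is uncertain.

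The sequence upstream of the annotated first exon is shown for the 2 neighbours on chromosome 7, because Sertad3 separated the groups and Sertad1 did not. The stretches are from RefSeq promoter windows on GRCm38, forward strand, chr7:27473590-27473767 for Sertad3 and chr7:27486703-27486909 for Sertad1. Capitals mark the CCAAT box (CCAAT) and the GC box (GGGCGG) on either strand.
Sertad3: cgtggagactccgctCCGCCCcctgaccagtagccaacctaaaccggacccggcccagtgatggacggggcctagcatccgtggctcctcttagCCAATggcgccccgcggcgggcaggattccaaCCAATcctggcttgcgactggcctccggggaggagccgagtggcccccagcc
Sertad1: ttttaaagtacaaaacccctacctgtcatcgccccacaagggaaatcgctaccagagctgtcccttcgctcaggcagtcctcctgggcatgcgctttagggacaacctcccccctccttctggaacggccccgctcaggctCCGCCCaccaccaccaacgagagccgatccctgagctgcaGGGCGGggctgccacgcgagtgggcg
The Sertad3 stretch held 2 CCAAT boxes and 1 GC box, and the Sertad1 stretch held 0 and 2. The whole windows, which reach into the first exon, held 2 and 1 for Sertad3 and 0 and 3 for Sertad1. Among all 32817 promoter windows, 37.4% held a CCAAT box and 35.6% a GC box. These shares are for whole windows, whereas the printed stretches are shorter, 178 and 207 bases. No window of any of the 5 genes held the core of an interferon-stimulated response element, GAAA followed after 2 free bases by GAAA, or TTCNNNGAA, the core of a gamma interferon activation site, which stood in 3.43% and 8.29% of all windows. The E2F letters TTTCCCGC, TTTGGCGC, TTTCGCGC and TTTGCCGC were also not in these windows, and 2.26% of all windows held any of them. The search says nothing of sites that are spelled differently or lie elsewhere.

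Expression is given in FPKM, fragments per kilobase of gene per unit of mapped fragments, so that gene length and depth had been divided out by the authors. The number of reads is not contained in FPKM, so no counting error could be given. The depth that the smallest steps of the values imply was 0.694 times that of control 1 in control 2, and at least 0.871 times in all others. Of 10 epithelial markers with values, the keratin genes Krt8 and Krt18 and the galectin gene Lgals4 were above 1 FPKM in all tumors. The adhesion and tight junction genes Epcam, Cldn4 and Cldn7 and the intestinal genes Cdx2 and Vil1 were too low for the filter named next, so the label of colon carcinoma rests here on few of its markers. In the summed level of the epithelial markers, control 4 stood apart with 146.8 FPKM, of which 129.3 FPKM was Krt8. For the comparison of the groups, limma was fitted on log2(FPKM + 1) to the 19018 genes that reached 0.1 FPKM in 6 or more tumors, and all 5 SERTA domain genes passed this filter.

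**Figure D1:**
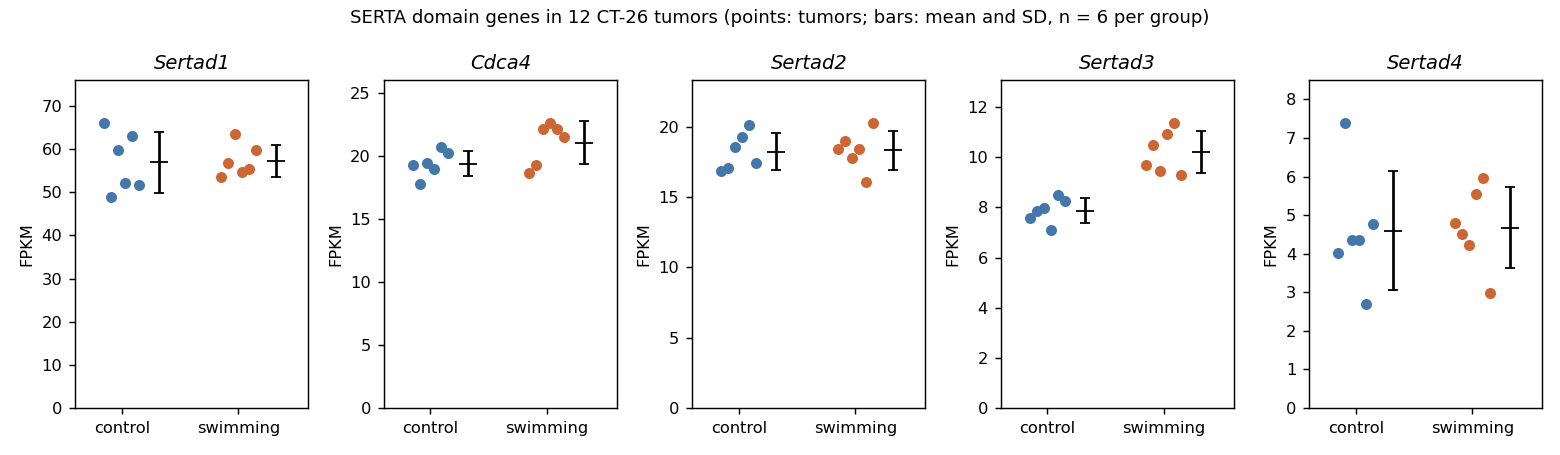
FPKM of the 5 SERTA domain genes, in order of level, with 1 point per tumor and black bars for the mean and SD (n = 6 per group). The 6 Sertad3 values of the swimming group all lie above the 6 control values, whereas the groups overlap for the other genes.

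Levels per gene length differed widely within the family. Over the 12 tumors, Sertad1 had the highest level with 57.1 ± 5.38 FPKM (SD, n = 12), followed by Cdca4 with 20.2 ± 1.59, Sertad2 with 18.3 ± 1.29, Sertad3 with 9.04 ± 1.39 and Sertad4 with 4.63 ± 1.26 FPKM. Sertad1 thus made up 53.0% of the summed FPKM of the family in the control group and Sertad3 7.37%. Neighbours in this order were compared within each tumor on log2(FPKM + 1) by two-sided exact sign-flip permutation tests, adjusted by Benjamini-Hochberg over the 4 pairs. The order was set by the means of these same tumors, and the pairs with Sertad3 hold the values for which it was picked. The p of these pairs are therefore a description. Sertad1 was above Cdca4 by 1.45 ± 0.14 (SD), Sertad2 above Sertad3 by 0.95 ± 0.23 and Sertad3 above Sertad4 by 0.85 ± 0.34, each in 12 of 12 tumors (permutation p = 0.000488, the smallest possible, adjusted p = 0.000651). Cdca4 and Sertad2 were closest, with a mean ratio of 1.11, and Cdca4 was the higher gene in 11 of 12 tumors (log2 difference 0.14 ± 0.14, permutation p = 0.00195, adjusted p = 0.00195). Within the control tumors alone, this last pair was not separated (log2 difference 0.09, exact sign-flip adjusted p = 0.0625). Sertad4 was the most variable gene of the family, with a coefficient of variation of 27.2% over all tumors, and Sertad2 the least variable with 7.07%.

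Sertad3 was at a higher level in every tumor of the swimming group than in any control tumor. Control tumors 1 to 6 had 7.59, 7.85, 7.97, 7.10, 8.48 and 8.24 FPKM. Swimming tumors 1 to 6 had 9.71, 10.5, 9.47, 10.9, 11.4 and 9.28 FPKM. The groups did not overlap, and the gap between the highest control tumor, control 5, and the lowest swimming tumor, swimming 6, was 0.799 FPKM. Means were 7.87 ± 0.487 FPKM for control and 10.2 ± 0.854 FPKM for swimming tumors (SD, n = 6), which is 2.34 FPKM apart. On the log2(FPKM + 1) scale, the difference of swimming minus control was 0.34 (standard error 0.06, 95% interval 0.20 to 0.47). The SD within the groups was 0.08 and 0.11. The difference stayed between 0.31 and 0.36 when each tumor was left out in turn. Neither the interval nor this range allows for the choice of Sertad3 by these same values, so both are a description. The share of Sertad3 in the summed FPKM of the family was 7.37 ± 0.539% in control and 9.16 ± 0.879% in swimming tumors (SD, n = 6).

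These values place Sertad3 among few genes, which is a description since the gene was picked for them. Groups that did not overlap were found in 28 of the 19018 genes tested, or 0.147%, with 15 of them (0.0789%) higher and 13 (0.0684%) lower in the swimming group, and Sertad3 was the only 1 of the 5 family genes among them. With limma, 1058 genes or 5.56% were called at an unadjusted p below 0.05, which is the background for the counts that follow, and no such call is read for the family genes. After Benjamini-Hochberg adjustment of limma's p over all genes, 0 genes (0%) were called at 0.05. Of all 19018 genes, 345 had a larger log2 difference in the same direction. For a higher level such as that of Sertad3, more cells of a type and more RNA per cell cannot be told apart in these whole tumors.

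Sertad1, the CDK4-binding member, did not follow its neighbour. Control tumors ranged from 48.8 to 66.2 FPKM (median 55.9), and swimming tumors from 53.6 to 63.6 FPKM (median 56.1). All 6 swimming tumors lay within the control range. The log2 difference was 0.02 (standard error 0.08, 95% interval -0.15 to 0.18), and it turned to -0.03 without control 2. The spread of Sertad1 was wider in the control group (SD 7.06 FPKM) than in the swimming group (SD 3.71 FPKM), and this difference in spread was not tested.

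Sertad2, the coactivator linked to fat storage, had nearly the same level in both groups. Control tumors ranged from 16.9 to 20.2 FPKM (median 18.0), and swimming tumors from 16.1 to 20.3 FPKM (median 18.4.) The lowest and the highest of the 12 values both belonged to the swimming group, swimming 5 and swimming 6. Its log2 difference was 0.01 (standard error 0.06, 95% interval -0.12 to 0.14).

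Cdca4, the E2F target, lay partly above the control range. Control tumors ranged from 17.8 to 20.8 FPKM (median 19.4), and swimming tumors from 18.6 to 22.7 FPKM (median 21.8.) Swimming 3, 4, 5 and 6 were above all control tumors, and swimming 1 and 2 were within the control range. The means were 19.4 ± 1.02 and 21.1 ± 1.69 FPKM (SD, n = 6), with a log2 difference of 0.11 (standard error 0.06, 95% interval -0.02 to 0.23).

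Sertad4 was the weakest and most scattered gene. Control tumors ranged from 2.70 to 7.40 FPKM (median 4.35), and swimming tumors from 2.98 to 5.95 FPKM (median 4.65.) The highest value was that of control 2, the tumor with the lowest depth, and the lowest was that of control 5. With a log2 difference of 0.04 (standard error 0.18, 95% interval -0.34 to 0.42), a change of the size seen in Sertad3 could not be told from none in Sertad4. Over the 12 fits without 1 tumor, the log2 difference ranged from -0.07 without control 5 to 0.17 without control 2.

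**Figure D2:**
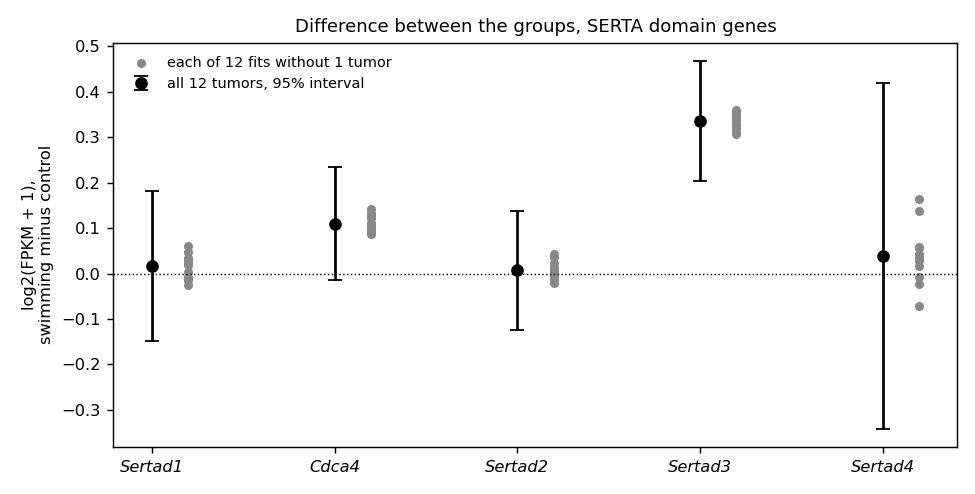
Difference between the groups on the log2(FPKM + 1) scale for the 5 genes, with black points and 95% intervals from all 12 tumors and grey points for the 12 fits that each left out 1 tumor. Sertad3 lies at 0.34, Cdca4 at 0.11, and Sertad4, Sertad1 and Sertad2 between 0.01 and 0.04, with the widest interval for Sertad4. The intervals do not allow for the choice of Sertad3 by these values.

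Around Sertad3, the 5 nearest protein-coding genes tested on each side were examined, which reach 215.8 kb away. The log2 differences of these 10 genes lay between -0.16 (Ltbp4, a binding protein of latent TGF-beta) and 0.17 (2310022A10Rik), 6 higher and 4 lower in the swimming group. With limma, 0 of the 10 had an unadjusted p below 0.05 (5.56% of all genes did), and in 0 of them did the groups separate (0.147% of all genes). The closest gene upstream was Blvrb, which encodes biliverdin reductase B, 7.62 kb away, with 20.1 ± 1.14 FPKM for control and 19.8 ± 1.13 FPKM for swimming tumors (SD, n = 6). Beyond Sertad1 lay Prx, the gene of periaxin, with 8.09 ± 2.09 and 8.56 ± 1.27 FPKM (SD, n = 6).

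**Figure D3:**
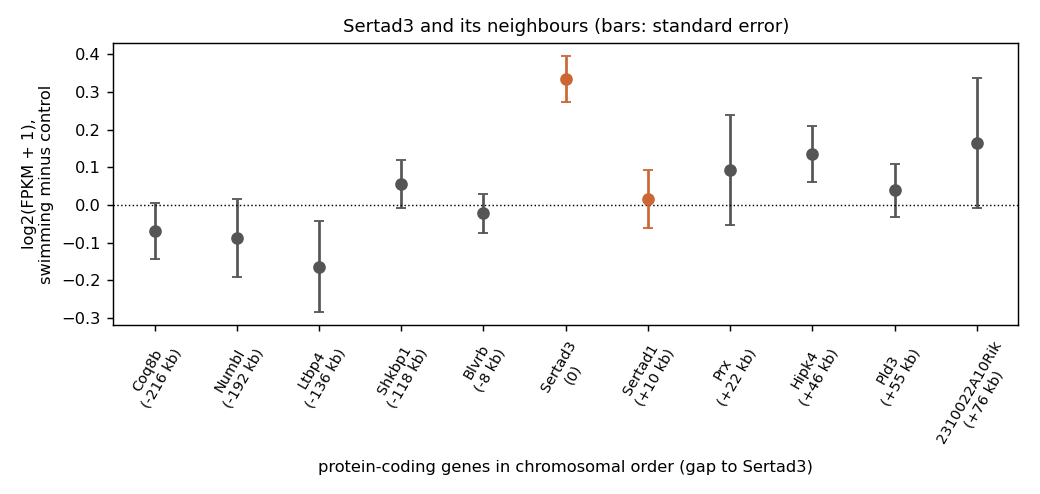
Log2 differences (swimming minus control, with standard errors) of Sertad3 and its 10 protein-coding neighbours in chromosomal order. Genes are evenly spaced and the gap to Sertad3 in kb is written under each name; Sertad3 lies at 0.34 and its neighbours between -0.16 and 0.17.

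Calls were counted next in 9 gene lists with 138 tested genes. Genes that SERTA proteins work with are in the lists of cyclin D and CDK, E2F, DP and RB, replication protein A and coactivator genes. The other lists hold S phase, mitosis, interferon and immediate early genes, which were not listed as partners. Of the 12 cyclin D, CDK and CDK inhibitor genes, limma called 2 higher and 0 lower at an unadjusted p below 0.05, against 3.11% higher and 2.46% lower over all genes tested. These were Cdk6, a partner of cyclin D like CDK4, with 16.3 ± 1.48 FPKM in control and 18.8 ± 1.47 FPKM in swimming tumors, and Cdkn2c, an inhibitor of CDK4 and CDK6, with 31.3 ± 4.48 and 37.1 ± 4.79 FPKM (SD, n = 6). Only 1 gene of this list was called without control 5, control 6, swimming 2, swimming 4 or swimming 5. Cdk4 itself, the partner of Sertad1, had a log2 difference of -0.09 (standard error 0.06), and Ccnd1, the gene of cyclin D1, 0.09 (standard error 0.06).

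Of the 13 E2F, DP and RB family genes, 2 were higher at an unadjusted p below 0.05 and 0 were lower. The number called was 1 without control 5, control 6 or swimming 5. E2f2, an activating E2F factor, had 3.60 ± 0.426 FPKM in control and 4.69 ± 0.483 FPKM in swimming tumors (SD, n = 6), a log2 difference of 0.31 (standard error 0.08). It was the only 1 of the 138 genes tested in the 9 lists in which the groups did not overlap. Over all genes tested, the groups did not overlap in 28 of 19018, or 0.147%. Rbl1, which encodes the RB relative p107, had 15.1 ± 1.79 and 17.3 ± 1.19 FPKM (SD, n = 6). Tfdp1, the gene of DP1, had a log2 difference of -0.10 (standard error 0.08). Of the 6 coactivators and PHD-bromodomain partners, 1 was higher and 0 lower, the acetyltransferase gene Kat2b, with 11.0 ± 0.911 and 12.6 ± 0.882 FPKM (SD, n = 6). Calls in either direction numbered 2 without control 5 and under 6 other settings of filter, scaling, weights or trend. With all tumors, Trim24 had the next smallest p of this list (limma, unadjusted p = 0.059). Its level was lower in the swimming group, with 6.77 ± 0.328 FPKM in control and 6.25 ± 0.174 FPKM in swimming tumors (SD, n = 6).

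The 3 replication protein A genes, whose product Sertad3 binds, were not called, except that 1 was called without swimming 6. Rpa1, Rpa2 and Rpa3 had log2 differences of 0.11, 0.09 and 0.08, with standard errors of 0.16, 0.08 and 0.07. Among S phase genes, 1 of 25 was higher at an unadjusted p below 0.05, the ribonucleotide reductase gene Rrm2, with a log2 difference of 0.20, and the median of the list was 0.07. The count was 3 without swimming 1 and 0 without control 4, 5 or 6 or swimming 3, 4 or 5. Among mitosis genes, 2 of 20 were higher, the proliferation marker Mki67 and the checkpoint kinase gene Bub1, with 0.30 and 0.24, and the median was 0.17. The median over all genes tested was 0.00387. Of the 20 mitosis genes, 12 were called without swimming 1, 5 without control 1, 4 without swimming 2, and 1 without control 4, swimming 4 or swimming 5.

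The lists, cell type markers included, were chosen with earlier results of these data known, so their counts are a description and not a test. Of the 9 lists, interferon gamma response genes held the largest share of calls, 81.2%. Of the 16 genes, 13 were higher at an unadjusted p below 0.05 and 0 were lower, with a median log2 difference of 0.75. The count was 16 without swimming 1, 7 without swimming 5 and 8 without control 5, swimming 3 or swimming 6. Of 22 interferon-stimulated genes, 6 were higher and 0 lower, with a median log2 difference of 0.32, and the count was 18 without swimming 1, 11 without swimming 2 and 2 without control 5, swimming 3 or swimming 5. Examples were Gbp2, a guanylate-binding protein gene, with 38.9 ± 13.8 FPKM in control and 81.7 ± 31.5 FPKM in swimming tumors, and Ddx58, which encodes the viral RNA sensor RIG-I, with 6.77 ± 0.778 and 8.77 ± 1.53 FPKM (SD, n = 6). Of 14 T and NK cell markers, 6 were higher and 0 lower at an unadjusted p below 0.05. Gzmb and Prf1, the markers with the highest FPKM, were not among the 6. Their log2 differences were 0.09 and -0.22, each with a standard error of 0.33. The summed level of the 14 markers was 23.7 to 51.2 FPKM in control and 20.4 to 65.9 FPKM in swimming tumors. Over the 12 tumors, r between Sertad3 and the score of these markers, their mean centred log2 value in a tumor, was 0.53 (permutation p = 0.0794, adjusted p = 0.294) and rho was 0.52 (permutation p = 0.0874, adjusted p = 0.397). It was -0.41 within the control group, 0.29 within the swimming group, 0.06 with both groups centred on their means and 0.39 without control 5 and swimming 5. The permutation p over all tumors holds the group difference for which Sertad3 was picked, so it is not read as a test. After Benjamini-Hochberg adjustment of limma's p over all genes, 0 of the genes in these lists were called at 0.05.

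In single tumors, Sertad3 and the interferon gamma list went together in some cases and not in others. To score a list, each gene's log2(FPKM + 1) was centred on its average over all 12 tumors, and the centred values were averaged within each tumor. Swimming 5 had the highest score of this list, 0.90, and the highest Sertad3 level, 11.4 FPKM. Swimming 1 had a score of -0.78, close to the lowest control tumor, control 5, at -0.79, and yet its Sertad3 level of 9.71 FPKM was above all control tumors. Control 4 had the highest score of the control group, 0.03, and the lowest Sertad3 level, 7.10 FPKM. Over the 12 tumors, r between Sertad3 and this score was 0.56 (permutation p = 0.0581, adjusted p = 0.267) and rho was 0.50 (permutation p = 0.103, adjusted p = 0.41). It was -0.73 within the control group and 0.28 within the swimming group, and 0.02 with both groups centred on their means. Here too, the permutation p over all tumors holds the group difference for which Sertad3 was picked and is not read as a test.

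Correlations across tumors were computed for 100 relations, 90 between a gene of the family and a list score and 10 between genes of the family, with Benjamini-Hochberg adjustment over all of them. Sertad3 was picked for its difference between the groups, and r over all tumors holds this difference. The permutation p of Sertad3 is therefore given as a description, with r within the groups beside it. Sertad3 had its highest r with the E2F, DP and RB family (r = 0.65, permutation p = 0.0262, adjusted p = 0.192, and rho = 0.60, permutation p = 0.0419, adjusted p = 0.34). The value of r was 0.38 without control 4 and swimming 5, whose scores were farthest from the median, and 0.53 to 0.85 when each tumor was left out in turn. For mitosis genes, r was 0.64 (permutation p = 0.0241, adjusted p = 0.192) with rho = 0.45 (permutation p = 0.14, adjusted p = 0.483), and r was 0.14 without swimming 4 and swimming 5. For replication protein A, r was 0.58 (permutation p = 0.048, adjusted p = 0.247) and rho 0.46 (permutation p = 0.137, adjusted p = 0.483), and r was 0.11 without swimming 4 and swimming 5. Within the control and swimming groups, r was -0.20 and 0.90 for replication protein A, -0.04 and 0.79 for mitosis genes, and 0.25 and 0.79 for the E2F, DP and RB family. With both groups centred on their means, these lists had r of 0.60, 0.55 and 0.54 in the same order. The lowest r of Sertad3 was that with the epithelial markers (r = -0.61, permutation p = 0.0235, adjusted p = 0.192, and rho = -0.53, permutation p = 0.0799, adjusted p = 0.381), which was -0.20 without control 4 and swimming 5, -0.68 within the control group, -0.96 within the swimming group and -0.70 with both groups centred on their means. None of the 18 lists had an adjusted p below 0.05 with Sertad3. The chromosomal neighbours Sertad3 and Sertad1 had an r of 0.01 (permutation p = 0.982, adjusted p = 0.982) and a rho of 0.04 (permutation p = 0.903, adjusted p = 0.982).

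**Figure D4:**
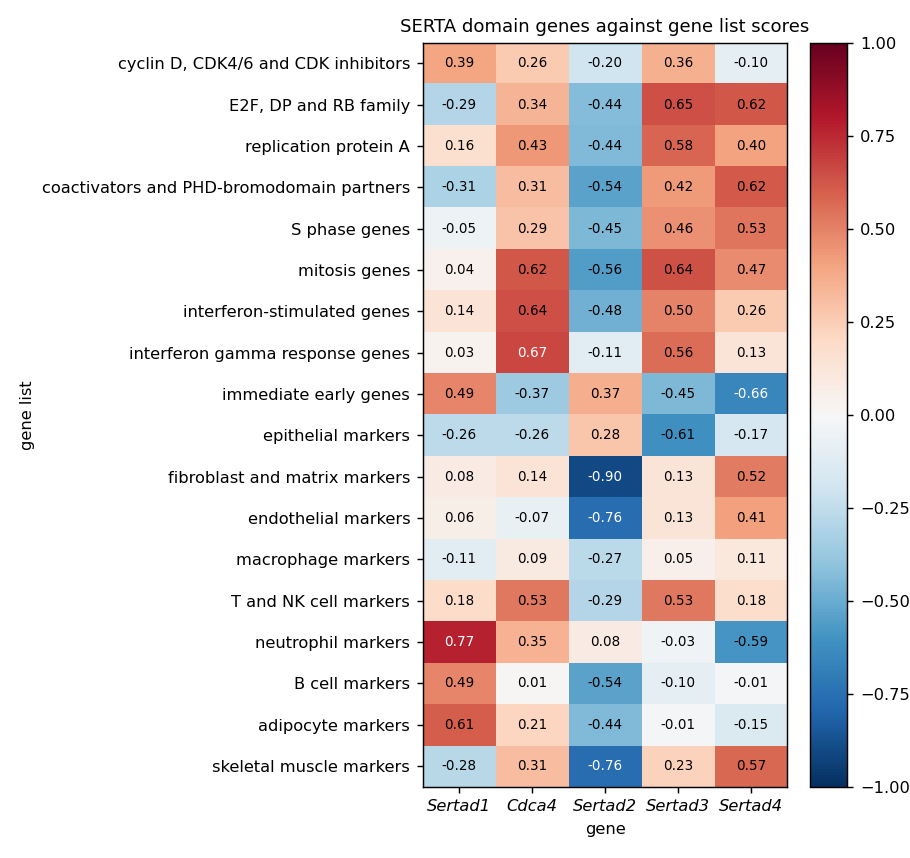
Pearson's r over 12 tumors between each SERTA domain gene (columns) and the score of each of 18 gene lists (rows), from blue for -1 to red for 1. The darkest cell is that of Sertad2 with fibroblast and matrix markers (-0.90).

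Of the 100 relations, 1 had an adjusted p of r below 0.05, that of Sertad2 with the fibroblast and matrix markers. Sertad2 was lower where these markers, such as the collagen genes Col1a1 and Col3a1, were higher (r = -0.90, permutation p = 4e-05, adjusted p = 0.004, and rho = -0.91, permutation p = 0.00014, adjusted p = 0.014). The score is RNA of whole tumors, and which cells the RNA came from was not tested. Control 1 and swimming 5 had the highest scores, 0.88 and 0.87, and the lowest Sertad2 levels, 16.9 and 16.1 FPKM. Without these 2 tumors, r was -0.84. Within the control group it was -0.91 and within the swimming group -0.92. Without swimming 5, r was -0.87 with an adjusted p of 0.065 over the same 100 relations in a permutation test. The summed level of the 14 markers ranged from 566.6 to 1326 FPKM in the control group and from 697.0 to 1240 FPKM in the swimming group, so that the groups overlapped, and 0 of the 14 markers were called at an unadjusted p below 0.05. Endothelial markers (r = -0.76, permutation p = 0.00352, adjusted p = 0.109, and rho = -0.68, permutation p = 0.0184, adjusted p = 0.332) and skeletal muscle markers (r = -0.76, permutation p = 0.00436, adjusted p = 0.109, and rho = -0.71, permutation p = 0.0129, adjusted p = 0.323) had r of the same sign and did not pass the adjustment. Without the 2 tumors farthest from the median score, these were -0.56 and -0.63.

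**Figure D5:**
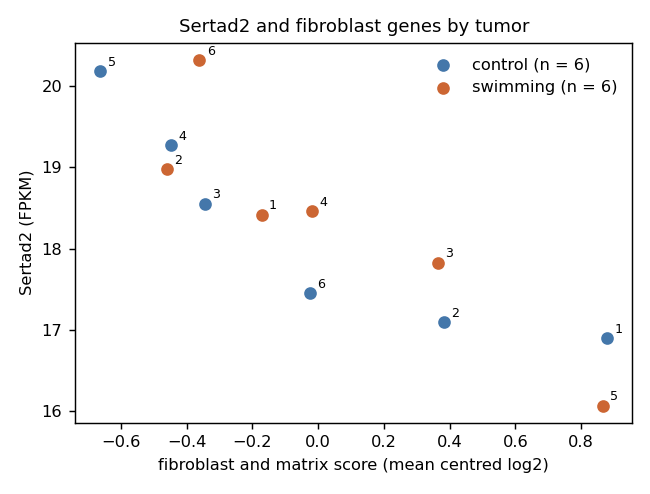
Sertad2 in FPKM against the fibroblast and matrix score of the same tumor (mean centred log2 value of 14 genes), with replicate numbers beside the points. Points of both groups descend from about 20 FPKM at the lowest scores to 16.1 FPKM in swimming 5.

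Within the family, no pair passed the adjustment. Sertad4 went against Sertad2 (r = -0.72, permutation p = 0.00743, adjusted p = 0.149, and rho = -0.57, permutation p = 0.0563, adjusted p = 0.34) and against Sertad1 (r = -0.70, permutation p = 0.0104, adjusted p = 0.174, and rho = -0.72, permutation p = 0.0104, adjusted p = 0.323). These r were -0.63 and -0.48 without control 2 and control 5. Sertad3 and Cdca4 had an r of 0.61 (permutation p = 0.0364, adjusted p = 0.214) and a rho of 0.57 (permutation p = 0.0583, adjusted p = 0.34). The r became 0.35 when both groups were centred on their means. Without the centring, it holds the group difference for which Sertad3 was picked, so its p is a description.

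Genes with the most similar course were looked for among 12788 genes with a mean of at least 1 FPKM, by Pearson's r over the 12 tumors after both groups had been centred on their means. For Sertad3 these included Ogfod1 (0.88), Trpm6 (0.88), Gle1 (0.87) and Cyb561d1 (0.86). The log2 differences of these 4 genes between the groups lay between -0.05 and 0.04, and without the centring r was 0.13 for Cyb561d1 and 0.55 for Gle1. Closest to Sertad1 were Chmp4b (0.92), Metrnl (0.91) and mt-Rnr1 (0.88), and closest to Sertad2 were Rpl39 (0.93), Upp1 (0.93) and Sox2 (0.92). Closest to Sertad4 were Bcdin3d (0.95), Ticrr (0.92) and the pseudogene Gm8666 (0.92), and closest to Cdca4 were Fadd (0.91), B3gnt2 (0.88) and Aasdhppt (0.86). These are the highest of all 12788 values for each gene, over few tumors, and are given as a description.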

How the data were processed

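RNA was extracted by the authors from 12 CT-26 tumors, 6 per group, and ribosomal RNA was removed before libraries were made. Reads were mapped with HISAT2 2.0.5 and quantified with StringTie 1.3.3. The methods name the hg38 genome and the submitters' processing notes also GRCm38, while the files list mouse genes. The deposited values are FPKM, 1 per gene and tumor, so reads of all transcripts of a gene were put together and depth and length had been divided out by the authors. How StringTie shares reads between overlapping genes is part of these values, and absolute depth is unknown. Transcripts were not analysed here, and Cldn3 and Cdx1 of the epithelial list were not analysed here.

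The family and the gene lists were chosen with earlier results of these data known. Groups and replicate numbers are from the sample labels. Of the 30630 identifiers, 30542 were found in GENCODE M21 (GRCm38), and coordinates were matched by identifier only. Genes that reached 0.1 FPKM in 6 or more tumors were compared on log2(FPKM + 1), which understates changes of weak genes, by lmFit and eBayes with trend in limma 3.58.1 (R 4.3.3), without covariates and with Benjamini-Hochberg adjustment. Calls at an unadjusted p below 0.05 were counted as well. Levels within tumors were compared by exact sign flips, and correlations by 100000 permutations (Python 3.11.15, scipy 1.17.1). The limma comparison was tested on simulated data. Named genes are the 5 family genes, list genes at an unadjusted p below 0.05 (of which examples are printed for the longer lists), the nearest protein-coding genes of Sertad3, and the genes most similar to each family gene. Some genes that this rule names are not reported here. Cdk4, Ccnd1, Tfdp1 and the 3 replication protein A genes were named for their roles, Trim24 for its direction, and Gzmb and Prf1 for their high FPKM. Alternatives were other pseudocounts (0.1 and 0.01), no filter or 1 FPKM, quantile normalization, trimmed mean scaling, eBayes with no trend, a block for replicate number, weights per sample, and fits lacking 1 tumor each.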

Additional observations from a re-analysis of the deposited data

How the results depend on the processing

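The log2 differences of the 5 SERTA domain genes moved by less than the SD within groups under all 21 alternatives. Sertad3 lay between 0.32 and 0.37 under the 9 settings with all tumors and between 0.31 and 0.36 without 1 tumor, and Cdca4 between 0.09 and 0.14 without 1 tumor. Those of Sertad1 (-0.03 to 0.06), Sertad2 (-0.02 to 0.04) and Sertad4 (-0.07 to 0.17) changed sign without single tumors. The number of all genes at an adjusted p below 0.05 was 1 with sample weights in limma and 0 to 3 without 1 tumor, 3 of them without control 4 and 2 without swimming 1, where 1058 genes had an unadjusted p below 0.05 with all tumors. With a filter of 1 FPKM, 391 genes were higher at an unadjusted p below 0.05 in place of 591, since fewer genes were tested. Without 1 tumor, 403 to 861 genes were higher and 388 to 655 lower. Of the 138 genes of the 9 lists, 29 were called with all tumors and 15 to 58 without 1 tumor (15 without swimming 5, 18 without control 5, 19 without swimming 3, 58 without swimming 1), and the cause was not tested. In control tumors alone, Cdca4 was above Sertad2 by 0.0869 (log2) with an adjusted p of 0.0625 (exact sign flips). The correlation of Sertad2 with fibroblast markers ranged from -0.93 to -0.87 without 1 tumor, and it missed the threshold without swimming 5. The tumors share only numbers: same-numbered tumors had a mean correlation of -0.12 in their deviations from the group means, and 0 of 6 control tumors correlated best with their own number. With the replicate block, 451 genes were higher and 441 lower at an unadjusted p below 0.05, 0 had an adjusted p below 0.05, 3 interferon-stimulated genes were called in place of 6, 1 cyclin D and CDK gene and 1 mitosis gene in place of 2 each, 0 S phase genes in place of 1, and the log2 difference of Sertad3 was 0.34 as without it. FPKM without read numbers limits what can be said of Sertad4, the weakest of the 5 genes.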

Other observations

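The summed FPKM of the 5 SERTA domain genes was 107.1 ± 6.93 for control and 111.6 ± 4.04 for swimming tumors (SD, n = 6), and it ranged from 99.0 to 117.2 over the 12 tumors. In 12 groups of 6 values, the 5 genes and their sum in each group, 0 had a tumor far enough from the others to be singled out by Dixon's ratio. The largest ratio was that of Sertad4 in the control group, 0.558, and it came from control 2.

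Immediate early genes, which respond within minutes to handling and growth signals, had 1 gene higher and 1 lower of 21 at an unadjusted p below 0.05, and 4 called without swimming 1. Atf3, a stress-induced factor, had 2.71 ± 0.352 FPKM in control and 3.91 ± 1.07 FPKM in swimming tumors, and Myc, a driver of cell growth, had 33.7 ± 5.82 and 26.1 ± 3.82 FPKM (SD, n = 6). Neutrophil markers had the highest r of any list with Sertad1 (0.77, permutation p = 0.00339, adjusted p = 0.109), with rho = 0.72 (permutation p = 0.0107, adjusted p = 0.323). It was 0.68 without control 1 and swimming 6, 0.89 within the control group and 0.35 within the swimming group. Cdca4 had an r of 0.67 with the interferon gamma list (permutation p = 0.0205, adjusted p = 0.192) and a rho of 0.61 (permutation p = 0.0398, adjusted p = 0.34), with -0.48 within the control group and 0.81 within the swimming group.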
